A study of Mus musculus with 18 samples.

Results

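The ErbB receptors are a family of receptor tyrosine kinases of the cell surface. Of *Egfr*, *Erbb2*, *Erbb3* and *Erbb4*, those were taken that a list of 170 signalling genes compiled by the study pairs with a UCSC identifier of the deposited tables. The list named 3 of the 4 receptors. *Egfr* (uc007ibo.1), *Erbb2* (uc007lgi.1) and *Erbb3* (uc007hnm.1) were found among the 12064 genes of the mesoderm table, and *Erbb2* and *Erbb3* also among the 11231 genes of the table for neural tube (NT) and forelimb bud (FL). *Erbb4*, and *Egfr* in NT and FL, were not analysed here. The rule itself uses no measured value.

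All 18 libraries came from mouse embryos at E11.5, in 6 groups of 3. Mesoderm was the GFP+ population sorted from R26-mTmGflox/+; Tg(T-cre)1LWD/J/+ embryos, in which T-Cre labels descendants of the primitive streak with membrane GFP, so that somite, limb, intermediate mesoderm and further derivatives of that lineage were measured as a mixture. NT and FL were microdissected from the same FVB embryos and carry every cell type of the dissected piece, with no sort. In all 3 tissues cycloheximide was present from dissection onwards, and RNA-Seq, which counts mRNA, was made beside Ribo-Seq, which counts the ribosome-protected fragments (RPFs) of that mRNA. The methods state that the sorted mesoderm cells and the dissociated neural tubes were divided between both library types, and how many embryos went into a replicate is not given in the sources used here. Translational efficiency (TE) is the log2 ratio of RPF over mRNA reads of a gene, set here so that 0 is the median over all genes of the table.

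ErbB receptors signal as pairs. EGFR binds EGF and TGF-alpha and carries an active kinase, ERBB2 binds no known ligand and serves as the favoured partner of the others, and ERBB3 binds neuregulins but has a weak kinase and so depends on its partner. Once paired, the receptors engage the Ras to ERK relay through Grb2 and Sos, and the PI3K to Akt arm, which ERBB3 recruits directly. In the embryo they are known from epithelia, the heart, and the neural crest and its glial derivatives.

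In the GENCODE M21 annotation of GRCm38, *Egfr* lies at chr11:16752203-16918158 on the forward strand, *Erbb2* at chr11:98412470-98437716 on the forward strand and *Erbb3* at chr10:128567523-128589652 on the reverse strand. Their longest coding transcripts encode 1210, 1256 and 1339 residues. The 5′-UTR of that transcript measured 272 nt in *Egfr*, 193 nt in *Erbb2* and 151 nt in *Erbb3*, against a median of 232 nt over the other 167 genes of the signalling list. Because TE concerns translation, the 30 bases around each start codon are given below, 12 before it and 15 after it, with the start codon in capitals.
Egfr: tcccggtcagagATGcgaccctcagggacc
Erbb2: gcagtgatcatcATGgagctggcggcctgg
Erbb3: tccactgtaatcATGagtgcgattgggact

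The 5′-UTR of *Egfr* held no upstream AUG (uAUG), and those of *Erbb2* and *Erbb3* held 1 each. Of the other 167 genes of the list, 98 (58.7%) held at least 1. The uAUGs of *Erbb2* and *Erbb3* each opened a short reading frame that closed before the receptor's own start codon. They are shown with the first and the stop codon in capitals.
Erbb2: ATGgggccggagccgcagTGA
Erbb3: ATGtcctccTAA
The *Erbb2* frame has 6 codons before its stop and ends 5 nt upstream of the start codon, and the *Erbb3* frame has 3 codons and ends 55 nt upstream. The deposited tables count reads on the CDS only, so they hold no reads of these frames, and the isoforms of the tables can differ from these transcripts.

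Libraries held between 11000015 and 50136443 reads on the genes of the tables. The receptor values rest on 211 reads (*Erbb3*, mesoderm Ribo-Seq replicate 2) to 9814 reads (*Erbb2*, mesoderm RNA-Seq replicate 2), which by counting alone gives an SD of 6.88% to 1.01% of the value. A pair of Ribo-Seq libraries of FL and NT stood apart from their groups. FL Ribo-Seq replicate 3 correlated with the other FL Ribo-Seq libraries at Pearson's r of 0.886 and 0.896, whereas these correlated with each other at 0.976. With the FL RNA-Seq libraries, FL Ribo-Seq replicate 3 correlated at 0.9012 to 0.9075, and FL Ribo-Seq replicates 1 and 2 at 0.7281 to 0.7404. NT Ribo-Seq replicate 3 correlated with the other NT Ribo-Seq libraries at 0.933 and 0.934, against 0.989 between these. Fitted receptor values that use either library are also given without it, as are the counts over gene lists reported here where they changed. Mesoderm RNA-Seq replicate 1 correlated with the other mesoderm RNA-Seq libraries at 0.939 and 0.953, against 0.987 between these. Mesoderm Ribo-Seq replicates 1 and 2 correlated at 0.919, and with replicate 3 at 0.9605 and 0.9614. Without replicate 1, log2 TE in mesoderm was 0.99 for *Egfr*, -1.15 for *Erbb2* and -0.98 for *Erbb3*. Markers of the labelled tissues were present. *Tcf15*, *Myf5* and *Msx1*, markers of somite, muscle and limb mesenchyme, had a summed level of 2652 to 4319 normalized reads in mesoderm RNA-Seq. The neural tube markers *Nes* and *Dcx* had 17436 to 29556 in NT RNA-Seq against 4668 to 5567 in FL RNA-Seq. In mesoderm RNA-Seq *Nes* and *Dcx* together had 6460 to 8651 normalized reads. Most of these sums was *Nes*, and *Dcx* alone had 2675 to 7953 in NT, 301 to 345 in FL and 238 to 361 in mesoderm.

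In the mesoderm, the 3 receptors divided by TE. *Egfr* carried more RPFs for its mRNA than the median gene, and *Erbb2* and *Erbb3* carried fewer. *Egfr* had 375, 429 and 698 normalized reads of mRNA in replicates 1, 2 and 3, and 812, 716 and 1694 of RPF. Every RPF value of *Egfr* thus lay above every mRNA value. Its log2 TE was 1.01 ± 0.18 (SE), 2.01-fold above the median gene (95% confidence interval 1.53 to 2.65), with an adjusted p of 0.00058 (limma, Benjamini-Hochberg), and it was above 0 in 3 of 3 replicates. Of all genes, 87.1% had a lower TE.

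*Erbb2*, the partner without a ligand, had 2790.4, 4689 and 4031 normalized reads of mRNA and 2018, 1790.2 and 2197 of RPF, so that its RPF values all lay below its mRNA values. Its log2 TE was -0.95 ± 0.20 (SE), 1.93-fold below the median gene (95% confidence interval 1.41 to 2.62), with an adjusted p of 0.0019, and it was below 0 in 3 of 3 replicates.

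*Erbb3*, the neuregulin receptor, had 766, 1181 and 1438 normalized reads of mRNA and 739, 438 and 1027 of RPF. Here the mRNA and RPF values overlapped. Replicate 2 stood lowest, with a log2 TE of -1.46 against -0.09 in replicate 1 and -0.52 in replicate 3. The fitted log2 TE was -0.69 ± 0.24 (SE) with an adjusted p of 0.026, and without replicate 2 it was -0.32 with an adjusted p of 0.082.

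None of the 3 receptors lay 3-fold from the median, the distance that the study also asked of a gene with low or high TE at an adjusted p under 0.05. By that rule 10.9% of the 12064 genes were low and 1.17% were high. At an adjusted p under 0.05 alone, 34.2% of all genes were below the median and 32.0% above it, so passing that test was common among genes. For *Egfr* and *Erbb3* the adjusted p stood under 0.05 only with the pairing of libraries made from the same cells. Without the replicate block their log2 TE was the same and the adjusted p became 0.061 and 0.16, and that of *Erbb2* became 0.019.

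**Figure D1:**
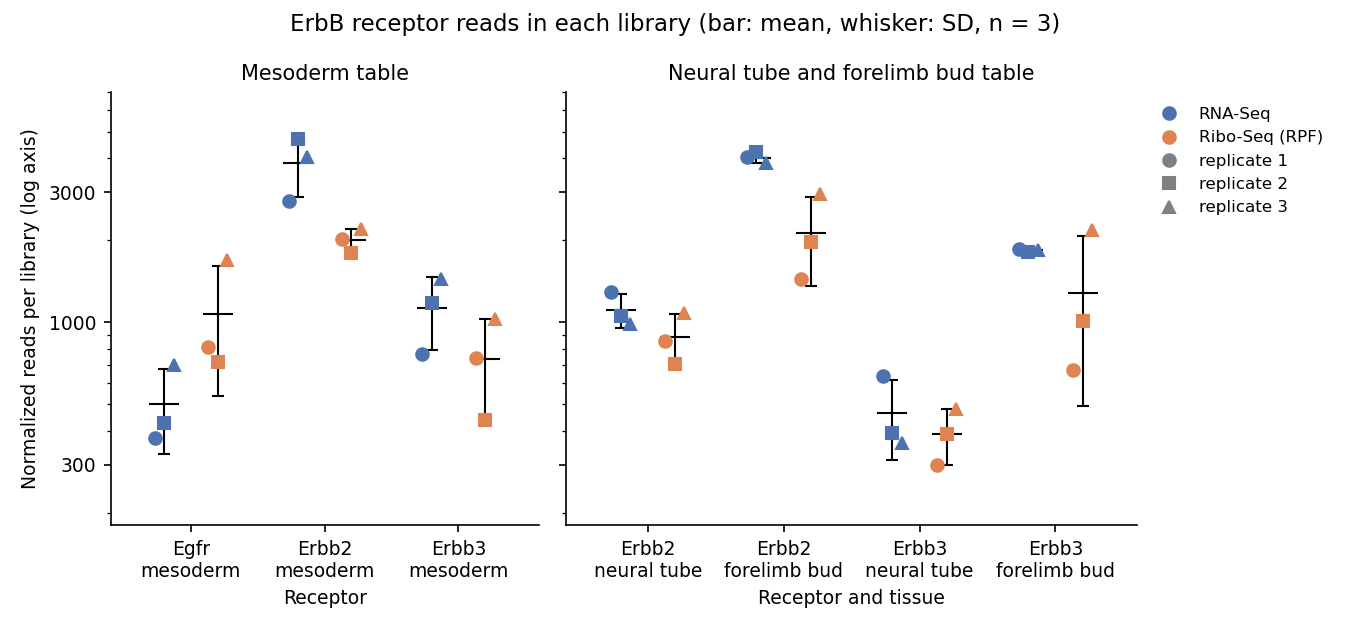
Normalized reads of each receptor (log axis) in each library of the mesoderm table (left) and of the NT and FL table (right), with RNA-Seq in blue, Ribo-Seq in orange, a symbol for each replicate, and the mean and SD of 3 libraries in black. In the mesoderm the RPF points of *Egfr* (716 to 1694) lie above its mRNA points (375 to 698) and those of *Erbb2* lie below, and in FL the mRNA points of both receptors lie above all NT points of the same receptor. The tables were normalized separately, so heights are not comparable between the panels.

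Levels of different receptors were compared per kb of counted CDS. In mesoderm RNA-Seq the order was *Erbb2*, *Erbb3*, *Egfr*, with 1034 ± 260 (SD, n = 3), 285 ± 85.7 and 140 ± 48.4 normalized reads per kb. The values of *Erbb2* lay above those of *Erbb3* without overlap, and those of *Erbb3* and *Egfr* overlapped. Within a library *Erbb2* mRNA exceeded *Egfr* mRNA 7.48-fold (geometric mean) and *Erbb3* mRNA 3.67-fold.

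In mesoderm Ribo-Seq the order was *Erbb2*, *Egfr*, *Erbb3*, with 539 ± 55 (SD, n = 3), 301 ± 151 and 186 ± 74.5 normalized reads per kb. *Egfr* thus stood last by mRNA and between the others by RPF, although its RPF values overlapped with those of *Erbb3*. In each of the 3 replicates *Egfr* had more RPF reads per kb than *Erbb3*, from 1.22-fold to 1.83-fold, and fewer mRNA reads per kb. The gap between *Erbb2* and *Egfr* was 7.48-fold in mRNA and 1.93-fold in RPF.

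The TE of *Egfr* exceeded that of *Erbb2* by 2.99-fold, 4.36-fold and 4.45-fold in replicates 1, 2 and 3. It exceeded that of *Erbb3* by 2.24-fold, 4.49-fold and 3.39-fold. The ranges did not overlap in either case, and the two-sided exact permutation test gave p = 0.1, the smallest that 3 against 3 values allow, and 0.19 after Benjamini-Hochberg adjustment over the 17 comparisons of this kind. *Erbb2* and *Erbb3* overlapped in TE (exact permutation p = 0.8, adjusted 0.85), with a difference of -0.26 ± 0.26 (SD of the 3 paired differences) on the log2 scale. The permutation tests treated the values as unpaired, although the receptors were measured in the same libraries.

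**Figure D2:**
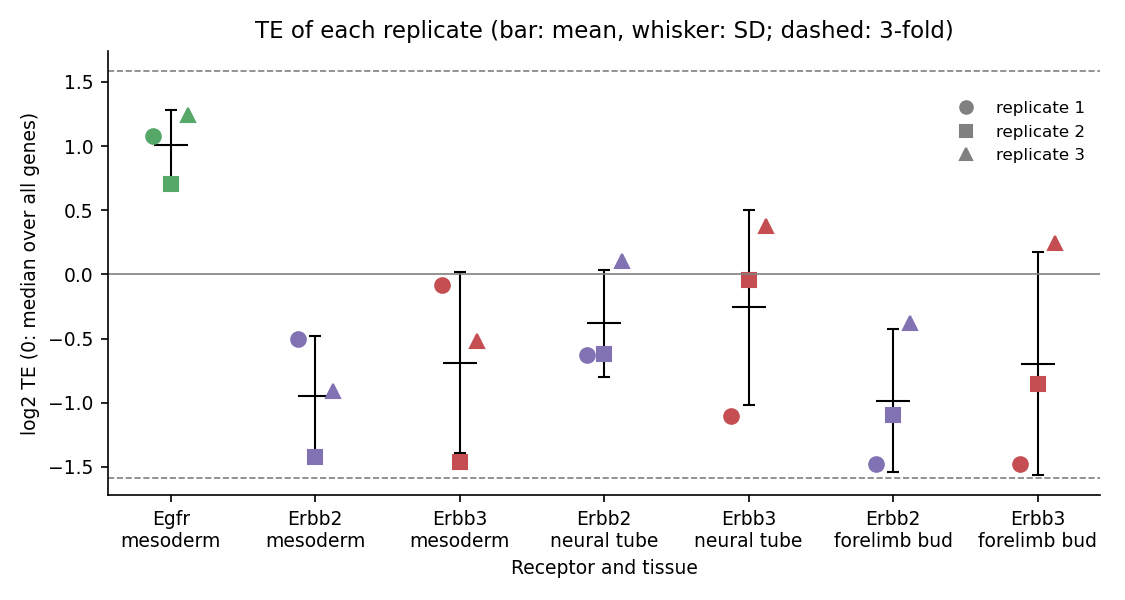
log2 TE of each receptor in each replicate, with 0 at the median over all genes of the table, the mean and SD of 3 replicates in black and the 3-fold distance dashed. *Egfr* lies above 0 in each mesoderm replicate (0.70 to 1.24), *Erbb2* lies below 0 in each mesoderm and FL replicate, and replicate 3 of *Erbb2* and *Erbb3* is the highest in NT and in FL.

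In NT, the TE of *Erbb2* and *Erbb3* did not pass the test against the median gene. *Erbb2* had 1297, 1057 and 989.7 normalized reads of mRNA and 857, 703 and 1084 of RPF. Its log2 TE was -0.38 ± 0.25 (SE, adjusted p = 0.28), and the 95% confidence interval ran from -0.95 to 0.18. It was below 0 in 2 of 3 replicates, and -0.62 (adjusted p = 0.11) without NT Ribo-Seq replicate 3.

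*Erbb3* had 634, 392 and 362 normalized reads of mRNA in NT and 300.7, 389 and 479.8 of RPF, with overlap between both. Its log2 TE was -1.10, -0.04 and 0.37 in replicates 1, 2 and 3. The fitted value was -0.26 ± 0.33 (SE, adjusted p = 0.58), which turned to 0.15 without replicate 1 and became -0.57 without NT Ribo-Seq replicate 3. At an adjusted p under 0.05, 15.6% of the 11231 genes lay below the median in NT and 10.7% above it. With the added 3-fold distance these shares were 4.30% and 0.427%.

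In FL, *Erbb2* carried fewer RPFs for its mRNA than the median gene, and *Erbb3* did not pass the test. *Erbb2* had 4029, 4201 and 3835 normalized reads of mRNA, and 1448, 1967 and 2952 of RPF, all of which were below the mRNA values. Its log2 TE was -0.99 ± 0.29 (SE), 1.98-fold below the median gene (95% confidence interval 1.23 to 3.19), with an adjusted p of 0.027. The adjusted p rose above 0.05 without replicate 1 (log2 TE -0.75, adjusted p = 0.34) and without replicate 2 (-0.94, adjusted p = 0.24). Without FL Ribo-Seq replicate 3 the value was -1.30 (adjusted p = 4.3e-13). That fit rests on replicate pairs 1 and 2 alone, and its p draws mainly on the spread shared over all genes.

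*Erbb3* in FL had 1856, 1815 and 1838 normalized reads of mRNA, the tightest group of any receptor, and 669, 1008 and 2179.8 of RPF, the most scattered. FL Ribo-Seq replicate 3 alone exceeded the mRNA values. The log2 TE was -1.48, -0.85 and 0.24 in replicates 1, 2 and 3, and the fitted value of -0.69 ± 0.35 (SE) did not pass the test (adjusted p = 0.14). Without FL Ribo-Seq replicate 3 it was -1.18 with an adjusted p of 3.2e-09. Again that fit rests on replicate pairs 1 and 2 alone, and its p draws mainly on the spread shared over all genes. In FL, 26.6% of all genes were below the median at an adjusted p under 0.05 and 25.3% above it, and 13.4% and 6.28% with the added 3-fold distance, a rule that neither receptor met in NT or FL.

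Side by side, log2 TE of *Erbb2* was -0.95 in mesoderm, -0.38 in NT and -0.99 in FL, and that of *Erbb3* was -0.69, -0.26 and -0.69. For both receptors the value in NT was the nearest to 0. Mesoderm was not tested against the other tissues, whose table was normalized separately.

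Among receptor tyrosine kinases, *Egfr* stood near the top of the mesoderm. Of 42 others on the signalling list, 41 had a lower TE than *Egfr* and only *Csf1r*, the receptor of macrophages, had a higher one, at a log2 TE of 1.31. Their median was -0.36 and their values ran from -2.72 to 1.31. *Erbb2* and *Erbb3* lay in the lower part, with 8 and 13 of the 42 below them. In NT 9 and 13 of 36 others lay below *Erbb2* and *Erbb3*, or 9 and 9 without NT Ribo-Seq replicate 3, and in FL 10 and 15 of 36, where the median of the others was -0.58. In FL, 11 and 12 of 36 lay below them without FL Ribo-Seq replicate 3, and the median of the others was then -1.02.

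Of the 42 other kinases, 4 were called low in the mesoderm (3-fold, adjusted p under 0.05) and 0 high in limma, while 16 lay below the median and 7 above it at an adjusted p under 0.05 alone. Over all genes 10.9% were called low, and 34.2% and 32.0% passed on the adjusted p alone, so the share of low kinases was near the background. The 4 were *Aatk* (log2 TE -2.72), the Wnt receptor *Ryk* (-2.30), *Fgfr3* (-1.84) and *Epha8* (-1.71). *Ryk* was also the only 1 of 36 called in NT (-2.08), with and without NT Ribo-Seq replicate 3. In FL *Aatk* (-2.41), *Ryk* (-2.23) and *Fgfr3* (-1.92) were low and *Csf1r* (1.75) was high, beside 13.4% of all genes low and 6.28% high. The count of low kinases was 7 of 36 without FL Ribo-Seq replicate 3, beside 18.2% of all genes.

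**Figure D3:**
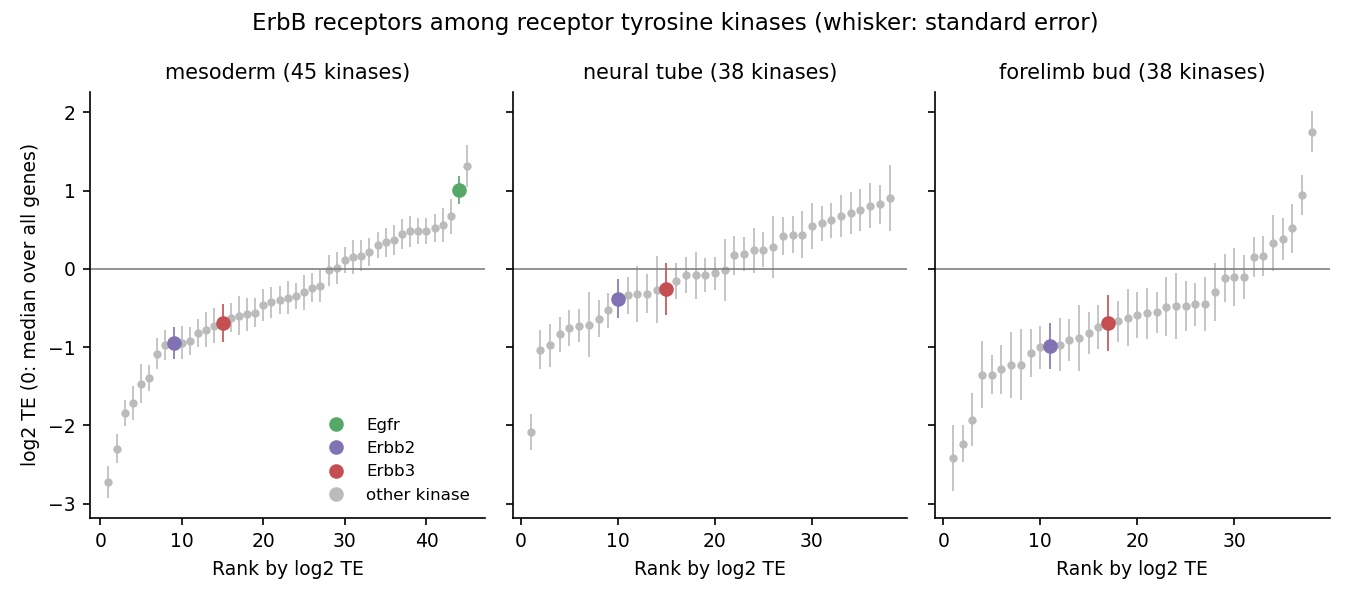
Receptor tyrosine kinases of the signalling list ranked by log2 TE in mesoderm (45 kinases), NT (38) and FL (38), with the standard error of each estimate and 0 at the median over all genes. *Egfr* (green) is second from the top in the mesoderm, and *Erbb2* (purple) and *Erbb3* (red) lie below 0 in each tissue.

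The comparison of FL with NT asked how the same tissue pair differs in mRNA, in RPFs and in TE. The tests of mRNA, RPF and TE shared their estimate of the spread over the 12 libraries. Leaving out a Ribo-Seq library therefore changed the p of an mRNA difference and not the difference. Both receptors had higher mRNA in FL. The mRNA of *Erbb2* was between 3835 and 4201 normalized reads in FL and between 989.7 and 1297 in NT, a rise of 1.86 ± 0.26 (SE) on the log2 scale or 3.63-fold (95% confidence interval 2.47 to 5.33, adjusted p = 0.0001). That of *Erbb3* was between 1815 and 1856 in FL and between 362 and 634 in NT, a rise of 2.03 ± 0.37 or 4.09-fold (95% confidence interval 2.36 to 7.07, adjusted p = 0.00094). The groups did not overlap for either receptor. By signed value of FL minus NT, 96.8% and 97.3% of all genes lay below them, genes lower in FL included. Over all 11231 genes 10.3% were called higher in FL and 12.3% lower. In dissected tissue, more cells that express a receptor and more mRNA per cell cannot be told apart.

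The RPFs were higher in FL as well. *Erbb2* had 1448 to 2952 normalized RPF reads in FL and 703 to 1084 in NT, a difference of 1.23 ± 0.26 (SE) on the log2 scale or 2.34-fold (95% confidence interval 1.59 to 3.44, adjusted p = 0.0021). *Erbb3* had 669 to 2179.8 in FL and 300.7 to 479.8 in NT, a difference of 1.57 ± 0.37 or 2.97-fold (95% confidence interval 1.71 to 5.13, adjusted p = 0.0041). Again the groups did not overlap. In a limma fit over the Ribo-Seq libraries alone the differences were the same, with an adjusted p of 0.026 for *Erbb2* and 0.032 for *Erbb3*. FL Ribo-Seq replicate 3 held the highest value of both receptors, and without it the differences were 0.96 (adjusted p = 0.0016) and 1.10 (adjusted p = 0.0038). Without NT Ribo-Seq replicate 3 they were 1.39 (adjusted p = 0.0018) and 1.73 (adjusted p = 0.0051). Both calls were lost without replicate 2 of all groups, where the differences were 1.10 (adjusted p = 0.095) and 1.67 (adjusted p = 0.069). Over all genes 22.6% were called higher in FL and 22.7% lower.

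The difference in TE between FL and NT was not resolved for either receptor. It was -0.63 ± 0.36 (SE) for *Erbb2* on the log2 scale (adjusted p = 0.33, 95% confidence interval -1.42 to 0.15) and -0.46 ± 0.52 for *Erbb3* (adjusted p = 0.58, 95% confidence interval -1.58 to 0.65). The intervals reach from a TE 2.67-fold and 2.99-fold lower in FL to one 1.11-fold and 1.57-fold higher. Without FL Ribo-Seq replicate 3 the values were -0.90 (adjusted p = 0.025) and -0.93 (adjusted p = 0.063), which passed an adjusted p of 0.2 but not the 2-fold distance. Without NT Ribo-Seq replicate 3 they were -0.47 (adjusted p = 0.37) and -0.30 (adjusted p = 0.72). For *Erbb3* the value was also -0.28 without replicate 2 of all groups (adjusted p = 0.95), and -0.26 by edgeR and by DESeq2 (adjusted p = 0.78 and 0.77). By both criteria 0.276% of all genes were called lower in FL and 0.125% higher.

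**Figure D4:**
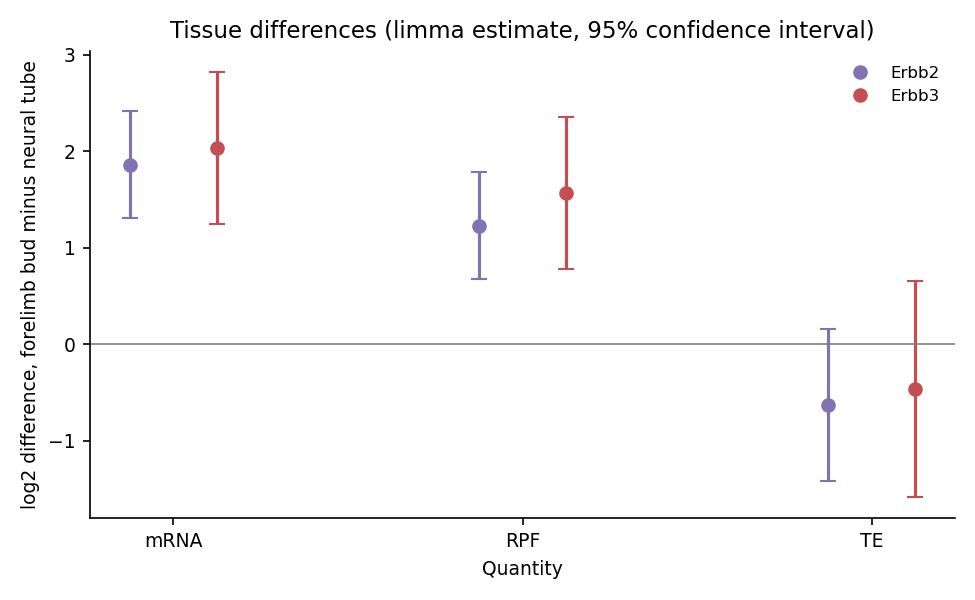
Difference between FL and NT in mRNA, RPF and TE of *Erbb2* (purple) and *Erbb3* (red) on the log2 scale, as the limma estimate with its 95% confidence interval over 12 libraries. The intervals of mRNA and RPF lie above 0 for both receptors, and those of TE include 0.

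Because *Erbb2* and *Erbb3* act as partners, their levels were set against each other within each library, per kb of counted CDS. *Erbb2* was higher than *Erbb3* in every library of the 3 tissues, from 1.44-fold in FL Ribo-Seq replicate 3 to 4.36-fold in mesoderm Ribo-Seq replicate 2. In mRNA *Erbb2* exceeded *Erbb3* by 2.63-fold in NT (2.18 to 2.91) and by 2.34-fold in FL (2.23 to 2.47), and the ranges overlapped (exact permutation p = 0.4, adjusted 0.49). In RPF it did so by 2.42-fold in NT (1.93 to 3.04) and 1.91-fold in FL (1.44 to 2.31), also with overlap (exact permutation p = 0.4, adjusted 0.49). With 3 libraries a group this test cannot give a p under 0.1, so it could not have passed a threshold of 0.05 whatever the ratios.

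**Figure D5:**
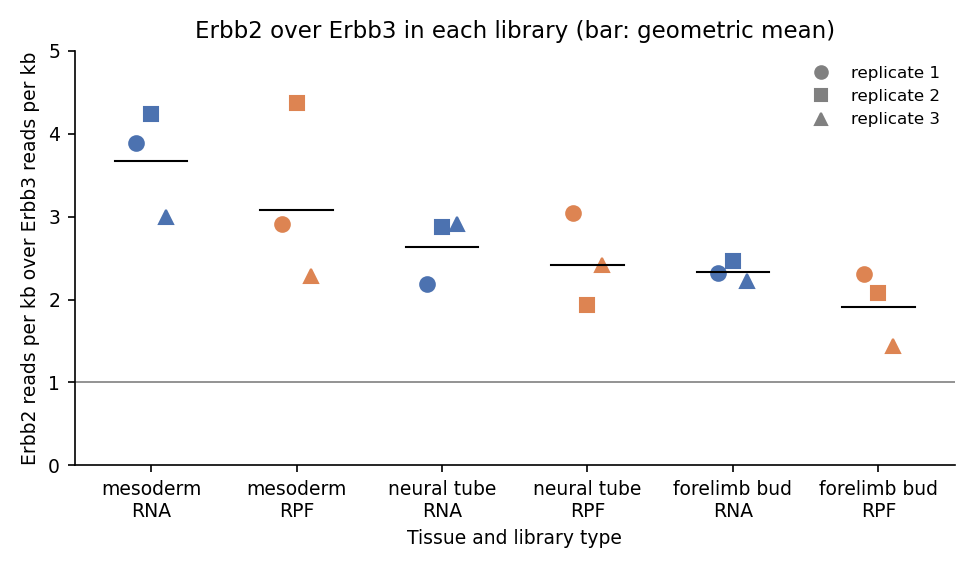
*Erbb2* reads per kb divided by *Erbb3* reads per kb in each library, with RNA-Seq in blue, Ribo-Seq in orange and the geometric mean as a black bar. All 18 points lie above 1, between 1.44 and 4.36, and the NT and FL points overlap.

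Markers of other cell types also differed between FL and NT. *Fabp7*, of radial glia and glial precursors, and *Ednrb*, of the neural crest and also the neural tube, were lower in FL mRNA (log2 difference -6.31 and -4.46). *Fabp7* had 24.8 to 103 normalized reads in FL RNA-Seq and 3054 to 6069 in NT RNA-Seq, and *Ednrb* had 64.8 to 164 and 1854 to 3512. *Epcam*, the only epithelial marker of the table with a symbol, had 537 to 690 normalized reads in FL RNA-Seq and 96.0 to 659 in NT RNA-Seq (log2 difference 1.68, adjusted p = 0.068), and rose by 3.66 on the log2 scale in RPF (adjusted p = 0.00039). Without NT Ribo-Seq replicate 3 the mRNA difference of *Epcam* was the same. It was then called higher in FL (adjusted p = 0.048) through the shared spread alone. Of the 2 markers of mesoderm and limb mesenchyme in this table, *Msx1*, of limb mesenchyme, rose by 2.22 in mRNA, and *Tcf15*, of somites, had a log2 difference of -0.47 (adjusted p = 0.65). The 8 markers of blood and endothelium had 4597 to 6113 in FL RNA-Seq and 6324 to 6770 in NT RNA-Seq. None was called in mRNA by limma, the nearest being *Cldn5* (-1.05, adjusted p = 0.062). *Cldn5* and *Esam* were called lower in FL mRNA without FL or NT Ribo-Seq replicate 3, again through the spread alone. In RPF, *Egfl7* (1.10) and *Csf1r* (0.71) were called higher in FL and none lower, beside 22.6% and 22.7% of all genes. Without FL Ribo-Seq replicate 3, 3 of 8 were higher and 3 lower, beside 32.7% and 32.0%. Without NT Ribo-Seq replicate 3, 3 were higher and 0 lower, beside 24.8% and 25.5%. The part of these cell types in the receptor differences was not tested.

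Genes that followed *Erbb2* over the 12 NT and FL libraries were other receptors of the signalling list. By Pearson's r on log2(normalized reads + 1), over 146 genes averaging 100 normalized reads or more, the 3 most like *Erbb2* were *Axl* (r = 0.970), *Erbb3* (0.967) and *Fgfr1* (0.964), and the 3 most like *Erbb3* were *Ephb3* (0.972), *Erbb2* (0.967) and *Ephb4* (0.965). The median r over the list was 0.01 for *Erbb2* and -0.09 for *Erbb3*. The 12 points share tissue, library type and replicate, so r mostly follows 4 group means. Over the 10 libraries without FL and NT Ribo-Seq replicate 3, *Gpr124* (0.984) came first for *Erbb2*, before *Erbb3* (0.979) and *Axl* (0.975), and the 3 genes most like *Erbb3* were the same in another order. The mRNA of *Ephb3* was 1.56 higher in FL on the log2 scale, that of *Fgfr1* 1.39 higher and that of *Axl* 1.42 higher.

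Downstream of the receptors, the 13 genes of the Ras to ERK relay had a median log2 TE of -0.22 in mesoderm, and the 12 genes of the PI3K and phospholipase C gamma arm a median of -1.56, beside 0 for all genes. Over all genes 10.9% were called low in mesoderm, 13.4% in FL and 4.30% in NT. In the relay, *Sos2*, an exchange factor for Ras, was the only 1 of 13 called in mesoderm (log2 TE -2.15) and in FL (-2.28). In NT none of the 13 was called by limma, where 2 were above and 3 below the median at an adjusted p under 0.05. In the other arm 5 of 12 genes were called low in mesoderm and none high, among them the PI3K subunits *Pik3cd* (-2.05) and *Pik3ca* (-1.75), and the phospholipases *Plcg1* (-2.04) and *Plcg2* (-1.89). In FL 4 of 12 were low, *Pik3cd* (-3.04), *Plcg1* (-2.44), *Pik3ca* (-2.27) and *Pik3cb* (-2.18). In NT 0 of 12 were called by limma, although 6 were below the median at an adjusted p under 0.05, with *Akt1* nearest the 3-fold distance (-1.48). Without FL Ribo-Seq replicate 3 the FL counts were 1 high and 2 low of 13 and 5 low of 12, beside 18.2% of all genes low and 12.5% high. The NT counts were again 0 of 13 and 0 of 12 by limma without NT Ribo-Seq replicate 3, beside 3.88% of all genes low.

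Between FL and NT no gene of the relay or of the PI3K arm was called higher in mRNA. *Grb2*, the adaptor that joins receptor and Sos, fell by 0.98 and *Mapk3* by 0.76 on the log2 scale, and none of the other 11 genes of the relay was called. In the arm 2 of 12 genes were called, both lower, of which *Pik3cd* fell by 2.22. Over all genes 12.3% were called lower in mRNA, near the share of either list. When FL Ribo-Seq replicate 3 was left out, 3 of 13 and 4 of 12 were lower, beside 16.4% of all genes. In RPF 2 of 13 genes of the relay were lower in FL and none higher, *Sos2* (-1.44) by the most, and of the 12 genes of the arm 5 were lower and 1 higher, among them *Pik3cd* (-3.88), *Pik3cb* (-2.19) and *Pik3r3* (-1.75), which were lower. Over all genes 22.7% were lower in RPF and 22.6% higher, a larger share than in the relay. Without FL Ribo-Seq replicate 3, 4 genes of the relay were lower in RPF and 2 higher, and 7 of the arm were lower and 1 higher, beside 32.0% of all genes lower and 32.7% higher. Without NT Ribo-Seq replicate 3, 5 of the relay were lower and 1 higher, and 8 of the arm were lower, beside 25.5% and 24.8%.

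Of the 9 partners and brakes of ErbB signalling with a symbol (19 were listed), 3 rose in mRNA and none fell, beside 10.3% of all genes called higher and 12.3% lower. These were *Dusp6*, a phosphatase of ERK (1.91 on the log2 scale), and *Spry1* (1.63) and *Spry2* (1.17), which restrain the relay. In RPF 5 were higher and 2 lower, beside 22.6% and 22.7% of all genes, led by *Spry1* (3.02), *Dusp6* (2.87), *Spry4* (2.73) and *Spry2* (2.08). These genes answer to other receptor tyrosine kinases too. In TE, 2 of the 9 were called low in each tissue and 0 high. Of all genes, 10.9% were low in mesoderm, 4.30% in NT and 13.4% in FL. The low genes were *Nf1*, which switches Ras off (log2 TE -1.98), and *Spred2* (-1.66) in mesoderm. They were *Spred2* (-1.95) and *Spry1* (-1.78) in NT, and *Nf1* (-2.89) and *Erbb2ip* (-1.64), whose product binds ERBB2, in FL. Without FL Ribo-Seq replicate 3, 3 of the 9 were low in FL, beside 18.2% of all genes. No gene of these 3 lists passed the test of a TE difference between FL and NT in limma. *Hras* of the relay (0.84) and *Spry1* of the brakes (1.39) were nearest in their lists, each at an adjusted p of 0.29. Without FL Ribo-Seq replicate 3, when 19.8% of all genes were called lower and 16.5% higher, 4 of 13, 6 of 12 and 6 of 9 were called in TE, all 6 of the arm lower in FL and the others in both directions. Without NT Ribo-Seq replicate 3, when 15.0% and 11.1% of all genes were called, it was 2 of 13 and 6 of 12, all lower, and 6 of 9 in both directions. None of the 11 ErbB ligands, EGF-like growth factors and neuregulins, could be matched to an identifier, and their levels were not analysed here.

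Of the 36 other receptor tyrosine kinases, 13 were called higher in FL mRNA and 6 lower, with a median difference of 0.36 beside 0.02 over all genes, of which 10.3% were called higher and 12.3% lower. The counts were 16 higher and 7 lower without FL Ribo-Seq replicate 3, beside 14.4% and 16.4%. The largest differences were those of *Pdgfra* (4.52), *Ddr2* (4.43), *Mertk* (3.96) and *Ror2* (3.05). *Erbb3* and *Erbb2* ranked below 7 and 8 of the 36. In RPF 13 of 36 were higher and 9 lower, beside 22.6% and 22.7% of all genes, from *Ntrk2* (-3.17), the BDNF receptor of neurons, to *Ddr2* (3.51), and again 7 and 8 lay above *Erbb3* and *Erbb2*. Leaving out FL Ribo-Seq replicate 3 gave 13 higher and 15 lower, beside 32.7% and 32.0%, with 8 and 11 above *Erbb3* and *Erbb2*. Leaving out NT Ribo-Seq replicate 3 gave 14 higher and 9 lower, beside 24.8% and 25.5%, with 6 and 8 above them. In TE 0 of 36 were called by limma, *Fgfr3* being nearest (-1.23, adjusted p = 0.29), with a median of -0.56 beside 0.01 over all genes, and 17 and 20 of the 36 lay below *Erbb2* and *Erbb3*. When FL Ribo-Seq replicate 3 was left out, 14 of 36 were called lower and 1 higher in TE, beside 19.8% and 16.5% of all genes, and 16 and 15 lay below *Erbb2* and *Erbb3*. When NT Ribo-Seq replicate 3 was left out, 9 were called lower and 1 higher, beside 15.0% and 11.1% of all genes, and 19 and 23 lay below the receptors.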

How the data were processed

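The authors trimmed adapters with cutadapt, removed rRNA, tRNA and snRNA reads, kept reads that mapped uniquely to canonical UCSC known genes (mm10), and counted reads per CDS, leaving out 15 codons at its start and 5 at its end. The deposited signal values are these counts after division by the size that DESeq estimated for each library. Every value was a whole multiple of what 1 read is worth (tolerance 0.0055), which gave back the reads. TE, and FL against NT, were fitted over all genes with limma (version 3.58.1, under R 4.3.3), after adding 1 to the normalized reads and taking log2, with a mean-variance trend and Benjamini-Hochberg adjustment. Single-tissue TE used the replicate number as a block and was centred on the median gene, and FL against NT used 12 libraries and no block. Calls needed an adjusted p under 0.05 and 3-fold for TE, 0.05 for mRNA and RPF, and 0.2 and 2-fold for the TE difference. In mesoderm the numbers pair the samples, since the sorted cells of a replicate were split, and deviations from the group means correlated at 0.76, 0.60 and 0.63. Between RNA-Seq and Ribo-Seq of NT these correlations were -0.32, 0.40 and 0.05, and of FL 0.05, 0.12 and 0.10. The block thus has less ground in NT and FL. The 3 replicates of a group are called biological by the study. Alternatives used edgeR 4.0.16 and DESeq2 1.42.0 on the reads, other pseudocounts, filters, scaling and samples. The fits were also run on simulated reads without replicate pairing, with planted TE changes larger than those of the receptors. That run therefore cannot speak to TE values of the size seen in the receptors. Lengths per kb are of the longest GENCODE coding transcript less 20 codons.

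Symbols were known for 3429 of 12064 mesoderm genes and 3285 of 11231 NT and FL genes. Named are the receptors, of each gene list the called genes with the 4 largest values (with none called, the gene nearest the threshold), and the 3 genes most like each receptor. The receptors and the lists were chosen with earlier results of these data known. Cell type lists also held genes without a symbol, so only 3, 2, 2, 3 and 8 markers of neural crest and glia, epithelium, neural tube, mesoderm and limb mesenchyme, and blood and endothelium were used. A few genes that the naming rule picks are not reported here.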

Additional observations from a re-analysis of the deposited data

How the results depend on the processing

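Over the alternatives, the receptor values kept their direction except that log2 TE of *Erbb3* in NT was 0.15 without replicate 1. Without the replicate block, *Egfr* (log2 TE 1.01) and *Erbb3* (-0.69) in mesoderm no longer had an adjusted p under 0.05, and no other receptor value changed sides with or without a block. Leaving out libraries gave log2 TE of -0.98 to -0.32 for *Erbb3* in mesoderm, -0.57 to 0.15 for it in NT, -1.30 to -0.75 for *Erbb2* and -1.18 to -0.31 for *Erbb3* in FL, FL minus NT in RPF of 0.96 to 1.46 for *Erbb2* and 1.10 to 1.78 for *Erbb3*, and in TE of -0.90 to -0.47 and -0.93 to -0.28. Leaving out FL or NT Ribo-Seq replicate 3 alone was added after seeing the data. The cause was not tested. Scaling to equal totals moved the median difference between FL and NT over all genes to -0.11 in RPF and -0.16 in TE and changed no receptor call. Both tissues were dissected from shared embryos, but no source used here ties a replicate number of one to that number of the other, and deviations of their Ribo-Seq libraries correlated at -0.35, -0.59 and -0.63.

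Counts over all genes moved more. A 2-fold distance called 1582 genes high and 2596 low in mesoderm, 511 and 1317 in NT, and 2138 and 2559 in FL. Fits on 1 library type called 1836 genes higher in FL mRNA, and 1520 higher and 1654 lower in RPF. For the TE difference, 14 genes were higher and 31 lower in FL, against 570 and 286 by DESeq2, 1 and 5 with the replicate block, 1 and 3 with the block of the sample, and 1 and 3 at an adjusted p under 0.05. Leaving out libraries gave 72 to 271 genes of high TE in mesoderm, 37 to 88 in NT and 387 to 1408 in FL, 448 to 1614 genes higher and 725 to 1845 lower in FL mRNA, 649 to 4021 and 1037 to 3850 in RPF, and 0 to 2329 and 0 to 2504 in TE. Without replicate 1 or 2 limma called 0 genes for the TE difference, with 160 and 265 at an unadjusted p under 0.05.

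Depth limits little here, since each receptor value rests on at least 211 reads.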
